A study of Mus musculus with 6 samples.

Results

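The genes described here encode 10 extracellular or cell-surface proteins grouped here as inhibitors of Wnt signalling, and were chosen by name. They are the Dickkopf genes Dkk1, Dkk2 and Dkk3, the Dickkopf receptor gene Kremen1, the secreted Frizzled-related genes Sfrp1, Sfrp2, Sfrp4, Sfrp5 and Frzb, and Wif1. All 10 were found on the array, each through 1 probe set that the array annotation pairs with that symbol alone, among 19938 genes measured in the same way. RNA of whole mouse corneas, dissected at postnatal day 3, was hybridised to Affymetrix Mouse Gene 1.0 ST arrays. There were 3 arrays of DN-Clim corneas, from K14-DN-Clim transgenic mice in which dominant-negative CLIM is driven by the promoter of keratin 14, a keratin of basal epithelial cells. The other 3 arrays held corneas from wild-type (WT) littermates of the same age. The labels do not give the CLIM sequence that the transgene carries, and no probe set was used to check it. Whether an array held RNA of 1 animal or of several is not stated in the labels, and the spread that the p-values rest on may in part be technical.

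Wnt proteins bind a Frizzled receptor together with Lrp5 or Lrp6, and the signal stabilises beta-catenin. The Dickkopf proteins Dkk1 and Dkk2 occupy Lrp5 and Lrp6, and Kremen proteins bind the receptor so occupied. Secreted Frizzled-related proteins and Wif1 instead bind Wnt proteins outside the cell. In the mouse eye, Dkk2 is required to keep the corneal epithelium from taking on the character of skin, while CLIM proteins join LIM homeodomain factors and other LIM-domain regulators into transcription complexes. The title of the study links CLIM proteins to Wnt signalling and to stem cells of the corneal epithelium.

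Promoter sequences are shown for Dkk2 and Sfrp2, the members with the largest differences between the groups, and for Dkk1, a Dickkopf gene known in mammals to respond to beta-catenin. Each is the stretch from 250 bases before to 50 bases after the annotated start in RefSeq (build GRCm38.p6), written 5′ to 3′ on the gene's own strand. RefSeq promoters were matched for 6 of the 10 genes. Capitals mark the core promoter word TATAAA and 4 words that TCF and LEF factors of the Wnt pathway bind, on either strand. Those searched were the word CTTTGAA, the word CTTTGAT, the word CTTTGTA and the word CTTTGTT.
Dkk2 (chr3:132085042-132085341, + strand): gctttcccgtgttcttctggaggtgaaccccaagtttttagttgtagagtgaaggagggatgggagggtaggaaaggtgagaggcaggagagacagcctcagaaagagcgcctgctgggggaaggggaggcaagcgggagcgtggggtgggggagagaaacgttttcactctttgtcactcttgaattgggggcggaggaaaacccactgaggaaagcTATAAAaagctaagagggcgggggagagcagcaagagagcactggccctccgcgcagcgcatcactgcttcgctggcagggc
Sfrp2 (chr3:83766071-83766370, + strand): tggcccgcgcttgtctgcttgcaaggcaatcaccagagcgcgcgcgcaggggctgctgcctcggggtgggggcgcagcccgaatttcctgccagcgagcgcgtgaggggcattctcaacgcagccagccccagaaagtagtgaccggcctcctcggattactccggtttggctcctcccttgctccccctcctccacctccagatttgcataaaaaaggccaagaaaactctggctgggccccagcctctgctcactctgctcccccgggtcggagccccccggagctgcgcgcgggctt
Dkk1 (chr19:30549447-30549746, - strand): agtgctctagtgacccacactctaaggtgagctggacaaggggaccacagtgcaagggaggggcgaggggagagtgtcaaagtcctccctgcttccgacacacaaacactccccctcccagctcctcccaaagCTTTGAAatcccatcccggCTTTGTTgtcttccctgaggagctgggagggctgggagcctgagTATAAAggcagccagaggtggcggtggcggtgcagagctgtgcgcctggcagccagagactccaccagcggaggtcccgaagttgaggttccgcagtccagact
Dkk1 held a TCF/LEF word at 117 and another at 98 bases before its start, and was the 1 gene of the 6 to hold any, against 16.9% of the 32851 promoters in the table. TATAAA began 32 bases before the Dkk2 start and 54 bases before the Dkk1 start, on the strand of each gene. In the Wif1 promoter it was on the opposite strand, with its left end 232 bases before the start. The word was present on either strand in 13.6% of all promoters. TAATTA, a core bound by many homeodomain proteins including LIM homeodomain factors, was in none of the 6 and in 5.29% of all promoters. These are matches of letters in a short window and show nothing of binding.

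The deposited values are probe set intensities on a linear scale, and tests used log2(intensity + 16), so that differences of dim genes are understated. Differences are DN-Clim minus WT on that scale unless an intensity is named. The limma model was fitted over 23410 probe sets, and p-values were adjusted over all of them (Benjamini-Hochberg, threshold 0.05). The median intensity of an array lay between 230.8 and 280.9 in DN-Clim and between 260.5 and 271.2 in WT. DN-Clim replicate 3 stands apart from the other arrays of its group. It correlated with DN-Clim replicates 1 and 2 at 0.928 and 0.900 over all probe sets, and with the WT arrays at 0.949 to 0.962. DN-Clim replicates 1 and 2 correlated with each other at 0.964. They were also close to WT replicate 3, at 0.965 and 0.957, so closeness to a WT array was not particular to DN-Clim replicate 3. Krt12 and Pax6, of the corneal epithelium list, read between 11.04 and 11.95 (log2) on all 6 arrays. Relative to the WT mean Krt12 read -0.25, -0.38 and 0.54 on DN-Clim replicates 1, 2 and 3. Every gene of the corneal epithelium list except Pax6 was below the WT mean on DN-Clim replicates 1 and 2. Intensities of 13 lens genes summed to between 4225 and 96775 in DN-Clim and to between 4459 and 6858 in WT, and the high sums came from DN-Clim replicates 1 and 2. Results are therefore given with all 6 arrays, without DN-Clim replicate 3, and with that replicate alone against WT.

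Of the 10 inhibitors, Sfrp2 was lower on every DN-Clim array than on any WT array, and Dkk2 was lower on DN-Clim replicates 1 and 2 but not on replicate 3. With all 6 arrays, 6 genes had a difference below 0, where 56.0% of all genes did, and 4 had one above it. The median difference was -0.09, against -0.03 over all 19938 genes. None of the 10 passed the adjusted threshold, which 0.0128% of all probe sets passed. At an unadjusted p under 0.05 there were 2 of the 10, Sfrp2 and Dkk2, against 5.94% of all probe sets. The groups did not overlap for 1 of the 10, Sfrp2, with the DN-Clim arrays below, as they did for 6.95% of all probe sets.

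**Figure D1:**
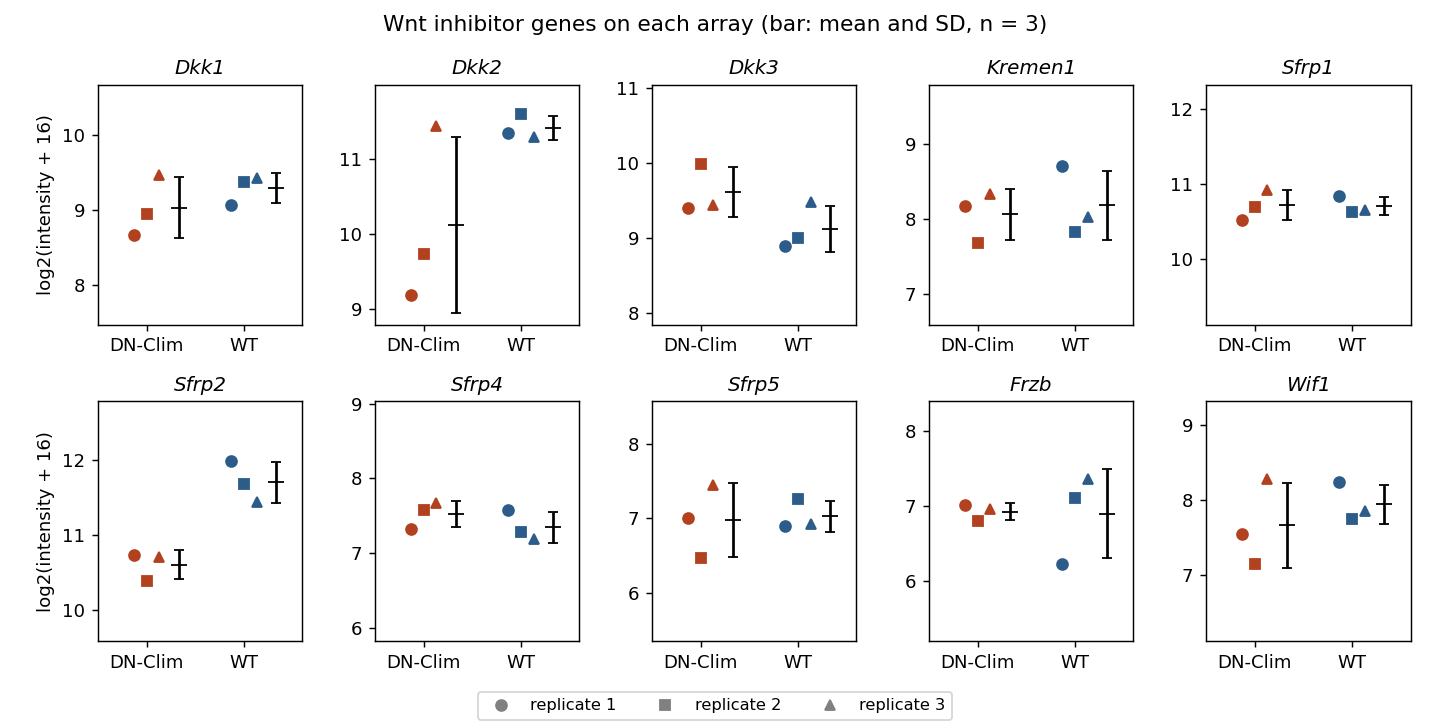
Log2(intensity + 16) of the 10 Wnt inhibitor genes on each array, DN-Clim at the left and WT at the right of each panel, with the mean and SD of 3 arrays beside the points. All panels span the same number of log2 units. Sfrp2 shows no overlap between the groups, and for Dkk2 the third DN-Clim array lies among the WT arrays.

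Dkk2 encodes a Dickkopf protein that binds Lrp5 and Lrp6. Its intensity (probe set 10496125) read 566, 841 and 2762 on DN-Clim replicates 1, 2 and 3, and 2597, 3094 and 2514 on WT replicates 1, 2 and 3. Replicates 1 and 2 of DN-Clim were below every WT array, while replicate 3 lay inside the WT range. Means were 10.12 ± 1.17 in DN-Clim and 11.42 ± 0.16 in WT (SD, n = 3 each), and the difference of -1.30 (SE 0.480) did not pass (limma adjusted p = 0.788). The spread between the DN-Clim arrays was thus almost as large as the difference between the groups. Without DN-Clim replicate 3, Dkk2 fell to 0.258 of WT on this scale, a difference of -1.96 (SE 0.206, limma adjusted p = 0.00641). Without DN-Clim replicate 1 the difference was -0.83 (limma adjusted p = 1.00), and without DN-Clim replicate 2 it was -1.11 (limma adjusted p = 0.957). With replicate 3 alone against WT the difference was 0.02 (SE 0.200, limma adjusted p = 0.966), with that array assumed to vary like WT. In that fit 0.337% of all probe sets passed.

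Dkk1, which inhibits the same receptors and is itself switched on by beta-catenin, had intensities of 391, 479 and 694 on DN-Clim replicates 1 to 3 and of 520.4, 649 and 676 on WT replicates 1 to 3. Its order among the DN-Clim arrays was that of Dkk2, with replicate 3 above all WT arrays. The difference was -0.26 (95% interval -0.80 to 0.28, limma adjusted p = 0.999). Without DN-Clim replicate 3 it was -0.48 (limma adjusted p = 0.200), and the remaining groups did not overlap, which held for 27.8% of all probe sets in the direction of lower DN-Clim. Without DN-Clim replicate 1 it was -0.081. Dkk1 did not pass in any of these fits.

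Dkk3, a divergent family member that acts differently from Dkk1 and Dkk2, was the gene of this group with the largest positive difference. Its intensities were 656, 1000.1 and 677 on DN-Clim replicates 1 to 3, against 459, 494 and 694 on WT replicates 1 to 3. The groups overlapped through WT replicate 3, which was above DN-Clim replicates 1 and 3. The difference was 0.49 (95% interval -0.05 to 1.03, limma adjusted p = 0.891), and it was 0.57 without DN-Clim replicate 3 (limma adjusted p = 0.235) and 0.30 without DN-Clim replicate 2. On WT replicate 3 the lens and retina lists were also the highest among the WT arrays, with medians 0.23 and 0.43 above the WT mean, and the part of those signals in the Dkk3 values was not tested.

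Kremen1, the receptor that works with Dkk1 and Dkk2, had intensities of 273, 189 and 308 on DN-Clim replicates 1 to 3 and of 402, 212 and 245 on WT replicates 1 to 3. Both groups spread widely and overlapped. The difference was -0.13 (95% interval -0.74 to 0.49, limma adjusted p = 0.999).

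Sfrp2 encodes a secreted Frizzled-related protein that binds Wnt proteins. Its intensity (probe set 10492798) read 1685, 1319.9 and 1658 on DN-Clim replicates 1, 2 and 3, and 4042, 3282 and 2765 on WT replicates 1, 2 and 3. All DN-Clim arrays, replicate 3 included, lay below all WT arrays. Means were 10.61 ± 0.19 in DN-Clim and 11.71 ± 0.27 in WT (SD, n = 3 each), a difference of -1.10 (SE 0.208, 95% interval -1.57 to -0.63), or 0.468 of WT. The difference exceeds the spread in either group, but over all probe sets it did not pass (unadjusted p = 0.000477, limma adjusted p = 0.404). Relative to the WT mean the DN-Clim arrays read -0.97, -1.32 and -0.997 in replicates 1, 2 and 3. Replicate 3 alone against WT gave -0.997 (SE 0.239, unadjusted p = 0.00345, limma adjusted p = 0.133). Without that replicate Sfrp2 fell by 1.15 (SE 0.207, limma adjusted p = 0.0361). The size of the Sfrp2 difference thus hardly depended on DN-Clim replicate 3, whereas the adjusted call was made only without it, or with arrays weighted by quality. Without DN-Clim replicate 3, 20.6% of all probe sets had an unadjusted p under 0.05, against 5.94% with all arrays.

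Sfrp1, which carries the same Wnt-binding domain, did not share the Sfrp2 pattern. Its intensities were 1460.4, 1651 and 1931 on DN-Clim replicates 1 to 3, against 1826, 1574 and 1599 on WT replicates 1 to 3. The WT arrays all lay inside the DN-Clim range. The difference was 0.01 with a 95% interval of -0.41 to 0.43 (limma adjusted p = 0.999), and its sign turned with quantile normalization and when DN-Clim replicate 3 was left out. The Sfrp1 interval does not reach the size of the Sfrp2 difference.

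The remaining secreted Frizzled-related genes were dim, with mean values in the lowest 23.3% of probe sets. Sfrp4 had intensities of 145, 176 and 188 in DN-Clim and of 176, 139 and 129.6 in WT, and differed by 0.18 (95% interval -0.26 to 0.62). Sfrp5 had 113, 72.7 and 159 in DN-Clim and 103, 138 and 105 in WT, and differed by -0.05 (95% interval -0.64 to 0.54). Frzb, also known as Sfrp3, had 114, 95.3 and 108 in DN-Clim and 59.3, 122 and 148 in WT, and differed by 0.03 (95% interval -0.61 to 0.66). The groups overlapped for all 3 genes, and the limma adjusted p was 0.999 for each. The Sfrp5 sign turned with median centring and with quantile normalization.

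Wif1, which binds Wnt proteins through a domain of its own, read 172, 126 and 295 in DN-Clim replicates 1 to 3 and 286, 199 and 215 in WT replicates 1 to 3. DN-Clim replicates 1 and 2 were the lowest arrays and replicate 3 the highest of all 6. The difference was -0.29 (95% interval -0.94 to 0.37, limma adjusted p = 0.999) with all arrays and -0.60 (limma adjusted p = 0.176) without DN-Clim replicate 3. It was -0.030 without DN-Clim replicate 2 (limma adjusted p = 0.995) and -0.14 without WT replicate 1. Of the 10 genes, Dkk1, Dkk2, Dkk3, Sfrp2 and Wif1 had an unadjusted p under 0.05 in that second fit, against 20.6% of all probe sets. The 2 that passed the adjusted threshold there, Dkk2 and Sfrp2, stand against 1.52% of all probe sets that fell and 0.547% that rose. That fit holds 2 DN-Clim arrays, chosen with the position of the third in view, and the median of all genes in it was -0.12.

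Relative to the WT mean, DN-Clim replicate 3 was higher than both other DN-Clim arrays for 7 of the 10 inhibitors. It was not for Sfrp2, Dkk3 and Frzb. On replicates 1, 2 and 3 the median over the 10 genes was -0.10, -0.43 and 0.20, beside -0.07, -0.17 and 0.08 over all genes. Whether the array medians reflect an offset between arrays was not tested.

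Gene lists for cell types that a dissected cornea can hold moved over the same arrays. Counts below 0 are of differences with all 6 arrays, where 56.0% of all genes lay below 0. Of 12 keratocyte and stromal genes, 11 lay below 0, with list medians of -1.15, -1.80 and 0.01 on DN-Clim replicates 1, 2 and 3. Summed intensity was between 17455 and 44422 on DN-Clim arrays and between 44030 and 49123 on WT arrays. Dkk2, at -2.23, -1.68 and 0.02, was low on the same 2 arrays as this list. The 13 lens genes were high there, with medians of 2.24, 2.83 and -0.09. For 9 genes of periocular mesenchyme, sclera and tendon the medians were -0.33, -1.54 and -0.12, with sums between 1928 and 5591 in DN-Clim and between 7625 and 9802 in WT. Both of these mesenchymal lists had their lowest median on replicate 2, and Dkk2 was lowest on replicate 1. Within the stromal list Pdgfra (-2.34, -2.00 and 0.07) and Chst5 (-1.93, -1.75 and 0.29) were also lowest on replicate 1, and most others on replicate 2. For 10 blood vessel genes the medians were -0.76, -1.31 and -0.46, with 9 genes below 0. Their sums lay between 2924 and 3830 in DN-Clim and between 5452 and 5502 in WT. For 8 pericyte and smooth muscle genes they were -0.42, -0.84 and -0.33, all 8 below 0. For 8 macrophage genes they were -0.45, -0.42 and -0.25, also with all 8 below 0. For 8 conjunctival genes, all 8 below 0, they were -0.50, -0.79 and -0.22. For 7 pigment cell genes the medians were 0.70, 0.58 and -1.25, of which -1.25 was the lowest of any cell type list on replicate 3. On DN-Clim replicate 3 the vessel, pericyte, macrophage, conjunctival, pigment, periocular and lens medians were thus below 0, as Sfrp2 was. The stromal, epithelial, corneal endothelial, retina and skeletal muscle medians were above 0 on that array, with skeletal muscle highest at 1.02. The summed intensity of the periocular list on that array, 5591, was also below every WT array. Of 10 corneal epithelial genes 9 lay below 0, with medians of -0.23, -0.68 and 0.12 and sums between 17529.7 and 25087 in DN-Clim and between 23878 and 25729 in WT. With all 6 arrays, the genes of these lists that passed were Emcn of the vessel list and Psca of the conjunctival list. Over all probe sets 0.0128% passed. Relative to the WT mean Emcn read -2.59, -2.51 and -2.22 on DN-Clim replicates 1, 2 and 3 (limma adjusted p = 0.0113). Psca read -1.90, -1.84 and -1.86 (limma adjusted p = 0.0230). Without DN-Clim replicate 3, 8 of the 12 stromal genes fell and 1 rose, and 8 of the 13 lens genes rose. In that fit 4 of the 10 vessel, 3 of the 9 periocular, 1 pericyte and 1 conjunctival gene fell, and 0 macrophage genes. Over all probe sets 1.52% fell and 0.547% rose. Of the 10 epithelial genes 2 fell in that fit. Aldh3a1, an abundant corneal aldehyde dehydrogenase, read -1.69, -1.54 and -0.03 relative to the WT mean on the DN-Clim arrays, and Krt14 read -0.81, -0.80 and -0.28 (limma adjusted p = 0.00446 and 0.0471 without that replicate). Both were lower on the arrays on which Dkk2 was low. No marker of these lists read below 16 on all arrays. The part of any of these cell types in the Dkk2 and Sfrp2 values was not tested, and in whole corneas fewer cells of a type and less RNA per cell cannot be told apart.

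The profile nearest to that of Dkk2 over the 6 arrays, among 17590 named genes, was that of Sema3a, a secreted guidance protein. Likeness was measured as the root mean square difference between profiles after each gene's mean was subtracted, which was 0.0905 log2 units for Sema3a. Galnt5, an enzyme that starts mucin-type glycosylation, followed at 0.149, and Pdgfra, the alpha receptor for platelet-derived growth factor, at 0.196. Pdgfra is 1 of the 12 genes of the keratocyte and stromal list. Sema3a read 8.08, 8.68 and 10.52 on the DN-Clim arrays and 10.48, 10.50 and 10.31 on the WT arrays, and so had the same split within the DN-Clim group. The genes nearest to Sfrp2 were Fmo1, a flavin monooxygenase, at 0.109, Kitl, the ligand of the Kit receptor, at 0.114, and Itga8, an integrin subunit, at 0.122. Fmo1 read 8.70, 8.12 and 8.48 on the DN-Clim arrays and 10.04, 9.55 and 9.30 on the WT arrays, again with no overlap. None of these 6 genes passed with all arrays (limma adjusted p between 0.440 and 0.796).

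**Figure D2:**
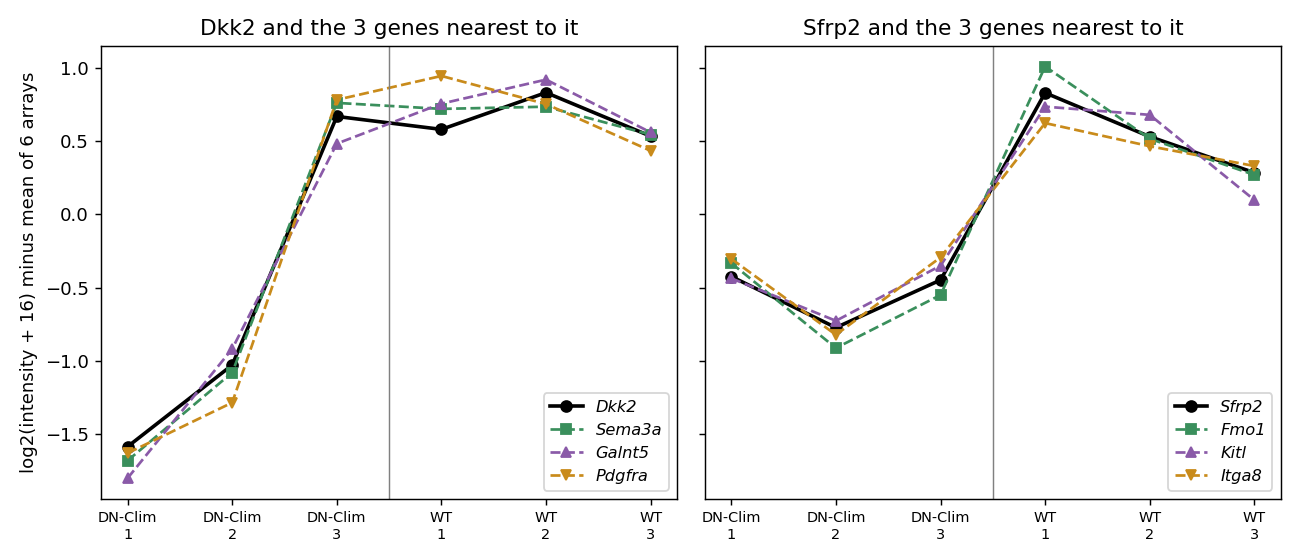
Log2(intensity + 16) minus the mean of the 6 arrays, for Dkk2 (left) and Sfrp2 (right) with the 3 genes nearest to each, DN-Clim arrays left of the grey line and WT arrays right of it. On DN-Clim replicate 3 the Dkk2 profile is at WT level and the Sfrp2 profile is below it.

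For Wif1 the nearest were Arhgef38, Meak7 and Rab17, at 0.0579 to 0.0732, of which Arhgef38 and Meak7, like Wif1, read highest on DN-Clim replicate 3. For Dkk3 they were Trim32, a ubiquitin ligase, Pgk1, a glycolytic enzyme, and Cdc25c, a phosphatase of the cell cycle, at 0.0684 to 0.0782. All 3 read highest on DN-Clim replicate 2. The likeness values are a description over 6 arrays, with no test. Among the inhibitors themselves the nearest pair was Sfrp1 and Sfrp4, at 0.111.

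Further inhibitors at the cell surface were described from a list of 16 genes, all measured. None passed with all arrays. The median difference was -0.08, close to that of the 10 inhibitors, and 9 of 16 lay below 0, where 56.0% of all genes did. Without DN-Clim replicate 3, 2 of the 16 fell, against 1.52% of all probe sets. Igfbp4, an insulin-like growth factor binding protein that also antagonises Wnt, read 10.16, 9.87 and 10.62 on the DN-Clim arrays and 11.05, 11.06 and 10.91 on the WT arrays. Its groups did not overlap, as for 6.95% of all probe sets with DN-Clim below. Igfbp4 differed by -0.79 with all arrays (limma adjusted p = 0.622) and by -0.99 without DN-Clim replicate 3 (limma adjusted p = 0.0269). Apcdd1, a membrane inhibitor of Wnt, read 7.98, 7.96 and 9.23 on the DN-Clim arrays and 9.29, 9.84 and 8.98 on the WT arrays. It had the split seen for Dkk2, with DN-Clim replicate 3 inside the WT range, and differed by -0.98 with all arrays (limma adjusted p = 0.788).

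Of 16 receptors and coreceptors on which the inhibitors act, none passed with all arrays or without DN-Clim replicate 3. The median difference was -0.13, with 11 of 16 below 0, where 56.0% of all genes were. Lrp5 and Lrp6, the targets of Dkk1 and Dkk2, differed by -0.06 (SE 0.189) and -0.25 (SE 0.179). The Frizzled receptor gene Fzd7 read 9.44, 9.61 and 9.54 on the DN-Clim arrays and 10.03, 10.02 and 9.90 on the WT arrays. It differed by -0.45 (limma adjusted p = 0.788) with no overlap, as for 6.95% of all probe sets with DN-Clim below. Fzd3, of the same family, read 9.86, 10.54 and 9.04 on the DN-Clim arrays and 8.63, 9.13 and 9.51 on the WT arrays, a difference of 0.72 (limma adjusted p = 0.898).

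Of 19 Wnt ligand genes none passed with all arrays, and 15 lay below 0, with a median of -0.12. Over all genes 56.0% lay below 0, with a median of -0.03. Wnt5a, a ligand known mainly for signalling without beta-catenin, was the 1 that fell without DN-Clim replicate 3, against 1.52% of all probe sets. It read 8.34, 8.43 and 9.84 on the DN-Clim arrays and 10.09, 10.26 and 9.77 on the WT arrays, so that DN-Clim replicate 3 again lay inside the WT range, and differed by -1.17 with all arrays (limma adjusted p = 0.701).

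Of 15 measured beta-catenin target genes none passed with all arrays. There 10 lay below 0, where 56.0% of all genes did, and the median was -0.11. Axin2 and Lef1, which respond directly to beta-catenin, differed by -0.04 (SE 0.190) and -0.23 (SE 0.208). Without DN-Clim replicate 3 there were 2 that fell, against 1.52% of all probe sets. They were Twist1, a mesenchymal transcription factor, and Cyr61 (symbol Ccn1 on the array), a matricellular protein. Twist1 read 8.88, 8.38 and 10.29 on the DN-Clim arrays and 10.53, 10.57 and 9.97 on the WT arrays. Cyr61 read 9.45, 9.43 and 10.94 on the DN-Clim arrays and 10.59, 10.70 and 10.47 on the WT arrays. Both were low on DN-Clim replicates 1 and 2 and above the lowest WT array on replicate 3. Without DN-Clim replicate 3, 11 of the 15 targets lay below 0, as did 12758 of all 19938 genes. Ccnd1 and Sox9 lay above 0 in that fit, by 1.03 and 0.73 (limma adjusted p = 0.0796 and 0.124). With all arrays they differed by 0.53 and 0.54 (limma adjusted p = 0.999 and 0.86), and the groups overlapped for both. On DN-Clim replicate 3 Ccnd1 read -0.46 and Sox9 0.14 relative to the WT mean. The part of lens and retina signals in these values was not tested.

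**Figure D3:**
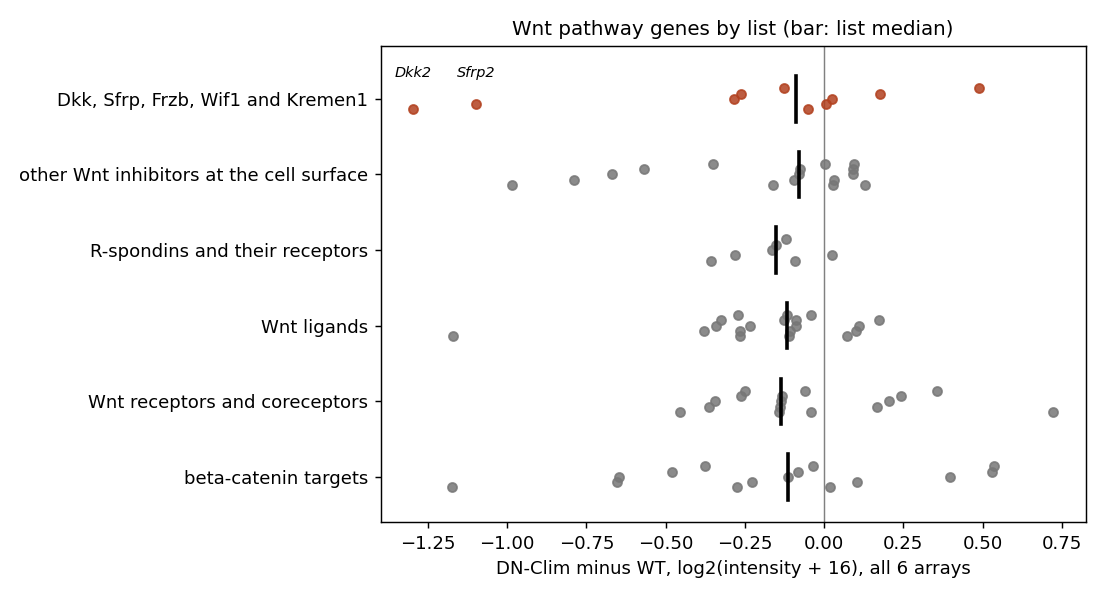
Difference between DN-Clim and WT in log2(intensity + 16) with all 6 arrays, 1 point a gene, for the 10 inhibitors and 5 lists of other Wnt pathway genes, with the median of each list as a bar. Medians lie between -0.15 and -0.08, and Dkk2 (-1.30) and Sfrp2 (-1.10) are the lowest of the 10 inhibitors.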

How the data were processed

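The authors deposited linear intensities of 35557 probe sets on 6 arrays. The submitters' processing notes name Affymetrix Expression Console 1.1 and PLIER. Their treatment of background and of differences between arrays is not stated there, and an offset between arrays can remain. Here 16 was added and log2 taken. Array medians differed by less than the 0.5 set for centring, and none was applied. GEO's platform table named 23410 probe sets, of which 21789 had 1 symbol. DN-Clim and WT were compared with limma 3.58.1 in R 4.3.3 (lmFit, eBayes), adjusted over the 23410, and the fit was tested on simulated data. The 10 genes, the other lists (1 gene matched through an older symbol) and the alternatives were chosen with earlier results of these data known. All 10 genes are described. Of every other Wnt list, up to 4 genes past the threshold with all arrays or without DN-Clim replicate 3 were named, or else the 2 with the smallest p. Lrp5, Lrp6, Axin2, Lef1, Ccnd1, Sox9, Krt12, Pax6, Aldh3a1, Krt14, Pdgfra, Chst5, Emcn and Psca were added after their values were seen. Nearest profiles were sought for the 4 genes with the largest SD over the arrays. The number of arrays limits the precision.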

Additional observations from a re-analysis of the deposited data

How the results depend on the processing

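Of the comparisons of the 10 genes with 15 alternatives, 123 changed neither in sign nor in passing, 5 came to pass and 19 turned in sign, none of them past the threshold. The filter on dim probe sets removed Sfrp4, Sfrp5 and Frzb. Sfrp2 stayed between -1.23 and -0.96 throughout, with adjusted p from 0.00517 to 1.00. Over all probe sets 3 passed, against 1 with quantile normalization, 5 with a trended robust prior, 9 with the replicate block, 79 with DN-Clim replicate 3 alone, and 0 to 483 when single arrays were left out. The 483 came without DN-Clim replicate 3 and the other 5 fits gave 0. Of the 10 genes 0 passed, against 0 to 2 with single arrays left out and 0 with the replicate block. Weights by array quality, estimated gene by gene and added after seeing the data because limma's usual method stopped before it converged, gave 2059 probe sets and 3 of the 10 genes, Dkk1, Dkk2 and Sfrp2. They weighted DN-Clim replicates 1, 2 and 3 at 3.06, 0.385 and 0.199. Signs turned for Kremen1 (0.066) and Sfrp1 (-0.12) with these weights, for Sfrp1 (-0.027) and Sfrp5 (0.056) with quantile normalization, and for Sfrp5 (0.020) with median centring. With DN-Clim replicate 3 alone they turned for Dkk1 (0.18), Dkk2 (0.020), Kremen1 (0.15), Sfrp5 (0.42) and Wif1 (0.33). With single arrays left out, Dkk2 ranged from -1.96 to -0.83, Dkk1 from -0.48 to -0.081, Wif1 from -0.60 to -0.030, Dkk3 from 0.30 to 0.66, Sfrp4 from 0.095 to 0.29, Kremen1 from -0.30 to 0.13, Sfrp1 from -0.10 to 0.10, Sfrp5 from -0.29 to 0.20 and Frzb from -0.31 to 0.26. The cause was not tested. Same-numbered arrays did not pair, with correlations of deviations of 0.017, -0.206 and -0.436. No gene was replaced by another probe set, since each had 1.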

Other observations

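R-spondins amplify Wnt signalling through the Lgr receptors and so act against the inhibitors described above. Of 7 R-spondin and Lgr genes, 6 lay below 0 with all arrays, where 56.0% of all genes did. Their median was -0.15, and none passed with all arrays or without DN-Clim replicate 3. Rspo1 read 7.58, 7.48 and 7.65 on DN-Clim replicates 1, 2 and 3 and 8.27, 7.86 and 7.66 on the WT arrays, a difference of -0.36 (SE 0.205, limma adjusted p = 0.942). The groups did not overlap, as for 6.95% of all probe sets with DN-Clim below. The intensities of DN-Clim replicate 3 and WT replicate 3 were close, at 184.4 and 185.8. Rspo3 read 6.996, 6.89 and 8.08 on the DN-Clim arrays and 7.62, 7.66 and 7.53 on the WT arrays, a difference of -0.28 (SE 0.300, limma adjusted p = 0.999). DN-Clim replicates 1 and 2 were below the WT arrays and replicate 3 was above them.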
